A study of Mus musculus with 18 samples.

Results

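At postnatal day 30, cerebral cortex from mice labelled Alg13 knockout was compared with cortex from mice labelled wild type, with 3 libraries in each group. These were 6 of the 18 RNA sequencing libraries in a series that also sampled postnatal days 1 and 7, and they were chosen by their genotype and age labels. The comparison took in all 28852 genes of the deposited table, of which 13347 were expressed highly enough to be tested. The series set out to ask how loss of Alg13 affects the distribution and migration of cortical interneurons. The sources used here do not give the strain, the sex, the knockout allele or the cells in which it acts. The labels number the replicates without saying that each is another animal, and p-values therefore cover only the spread from library to library, which may be technical.

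Alg13 works with Alg14 on the cytosolic face of the endoplasmic reticulum, where the pair adds the second N-acetylglucosamine to the dolichol-linked sugar from which protein N-glycans are built. Lipid-linked sugars are completed in the lumen and moved by oligosaccharyltransferase onto asparagines of new proteins, among them many ion channels, receptors and adhesion molecules of neurons. At about a month of age the mouse cortex has passed its main period of interneuron migration, and parvalbumin interneurons and myelin are maturing.

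Differences between the genotypes were few at this age. In limma, 3 of 13347 genes passed an adjusted p of 0.05 (0.0225% of genes tested). Dynlt1b rose in the knockout (0.00749% called higher), and Tmem254 and Rskr fell (0.015% called lower). Before adjustment, 479 genes (3.59% of those tested) had a p under 0.05, of which 288 (2.16%) were higher in the knockout and 191 (1.43%) were lower. The median log2 difference over all genes was 0.02, the median absolute difference was 0.10, and 55.3% of genes had a positive difference. The 3 knockout libraries did not overlap the 3 wild type libraries for 14.9% of genes, with the knockout higher for 9.35% and lower for 5.51%. The same fit called 1 gene at day 7 (0.00749%) and 69 genes at day 1 (0.517%). Values below are FPKM, the fragment count of a gene divided by its length and by the library's mapped total, and log2 differences are knockout minus wild type on the log2(FPKM + 1) scale, which understates the difference of low genes.

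**Figure D1:**
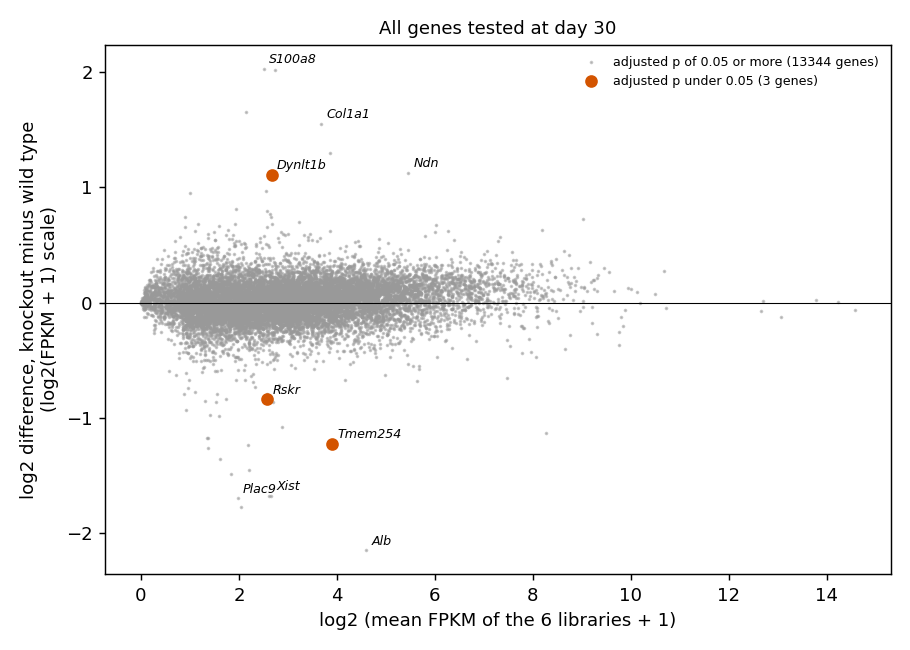
Each point is 1 of the 13347 genes tested at day 30, placed by its mean level over the 6 libraries (x axis, log2 of FPKM + 1) and its log2 difference, knockout minus wild type (y axis). The 3 genes with an adjusted p under 0.05, drawn large, stand at 1.11, -0.84 and -1.22, and genes such as Alb and S100a8 lie farther from 0 without passing the test.

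Several libraries stood apart in ways their labels do not describe. Alb, the main plasma protein made by liver, measured 8.00, 4.64 and 3.81 FPKM in knockout replicates 1 to 3 and 4.99, 50.6 and 67.7 in the wild type replicates, so that wild type replicates 2 and 3 stood high. S100a8, a granulocyte gene, measured 3.19, 0.996 and 22.5 FPKM in the knockout and 1.06, 0.291 and 0.0873 in the wild type, and Col1a1, a fibroblast collagen, measured 42.4 FPKM in knockout replicate 3 against 3.67 to 9.15 in the other 5. Scgb1a1, an airway secretory gene, was at 0.139 FPKM in knockout replicate 2 and 0.183 in wild type replicate 2, and at 19.7 to 30.0 in the others. Wild type replicate 2 alone had Xist, the non-coding RNA that silences an X chromosome, at 31.5 FPKM together with Ddx3y, a Y-linked gene, at 5.05, whereas the other 5 libraries had Xist at no more than 0.0254 and Ddx3y at 11.7 to 15.5. Libraries correlated at 0.974 to 0.989 within the knockout, at 0.992 to 0.995 within the wild type and at 0.983 to 0.990 between the groups, on log2 values across the genes tested. Slc17a7, the vesicular glutamate transporter of cortical excitatory neurons, measured 398 to 475 FPKM in all 6. A single gene of this kind cannot show that RNA of other regions or tissues was absent. Ttr, a gene of both choroid plexus and liver, measured 3.74 and 4.15 FPKM in wild type replicates 2 and 3, where Alb was high. In the other libraries Ttr measured 0.103 to 0.617 FPKM.

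Alg13 itself (Entrez 67574), the gene named as deleted, measured 1.32, 1.19 and 1.82 FPKM in the libraries labelled knockout and 0.968, 0.833 and 1.21 in those labelled wild type. The groups overlapped, and no library was near 0. The means were 1.45 ± 0.334 and 1.00 ± 0.191 (SD, n = 3 each; exact two-sided permutation test, p = 0.2, where 0.1 is the smallest possible), a log2 difference of 0.28 with a 95% interval of -0.13 to 0.70 (limma adjusted p = 1). RNA level therefore did not separate the labelled genotypes, and every direction below rests on the labels. The sources used here do not say which part of the transcript the knockout allele removes.

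Tmem254 (Entrez 66039, chromosome 14), a predicted membrane protein, measured 8.10, 8.66 and 7.01 FPKM in the knockout and 20.05, 18.6 and 20.8 in the wild type. All 3 knockout libraries lay below all 3 wild type libraries, and each group was tight. Tmem254 fell by 1.22 on the log2 scale (SE 0.185, limma adjusted p = 0.0251). It was also called lower at day 7, by -1.47, and at day 1, by -1.35, so it was called at every age sampled. Because the tissue was sequenced in bulk, fewer cells of a type and less RNA per cell cannot be told apart for this or any later gene. The gene lies in a region of chromosome 14 that holds near-identical copies, and the RefSeq sequences just upstream of 2 of them show how alike they are. Both stretches are 250 bases on the minus strand of GRCm38.p6, from chr14:25927673-25927922 for Tmem254a and chr14:26207026-26207275 for Tmem254b. The capitals mark the run of 234 bases that is the same in both. This run reaches the end of the Tmem254a stretch and the start of the Tmem254b stretch. The lower-case bases therefore lie outside the other stretch and are not shown to differ.
Tmem254a: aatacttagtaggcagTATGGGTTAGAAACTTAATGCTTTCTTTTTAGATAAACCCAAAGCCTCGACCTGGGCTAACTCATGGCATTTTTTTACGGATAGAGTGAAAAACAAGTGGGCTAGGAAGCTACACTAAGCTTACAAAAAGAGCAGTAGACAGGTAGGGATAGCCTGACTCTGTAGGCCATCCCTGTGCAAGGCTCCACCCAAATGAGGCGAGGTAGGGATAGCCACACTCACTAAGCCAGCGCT
Tmem254b: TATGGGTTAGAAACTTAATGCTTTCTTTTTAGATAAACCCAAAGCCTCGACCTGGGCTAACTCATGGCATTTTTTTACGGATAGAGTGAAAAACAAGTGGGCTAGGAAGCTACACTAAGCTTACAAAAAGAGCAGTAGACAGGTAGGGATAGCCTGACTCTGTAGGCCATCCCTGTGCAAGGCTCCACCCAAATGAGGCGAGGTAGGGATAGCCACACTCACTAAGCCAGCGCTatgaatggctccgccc
In the transcript of Tmem254a, 66.6% of 50-base windows also occurred in other genes of the annotation, so fragments can be divided among copies and the level is uncertain. Without knockout replicate 1, 2 or 3 the limma adjusted p of Tmem254 was 0.108, 0.0705 or 0.212, and without wild type replicate 2 or 3 it was 0.151 or 0.232, while the difference stayed between -1.28 and -1.15.

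Plac9, a gene first described in placenta, is the neighbour of Tmem254 in the reference annotation. It measured 0.941, 0.897 and 0.720 FPKM in the knockout and 5.45, 4.95 and 4.602 in the wild type. The groups did not overlap, and the log2 difference of -1.69 (SE 0.379) did not pass the test in the fit over all days (limma adjusted p = 0.503). That fit shares its SE with the earlier ages. Plac9 passed in 3 of 14 alternatives, among them a fit of the 6 day 30 libraries alone (limma adjusted p = 0.00266). Another left out wild type day 1 replicate 3 (limma adjusted p = 9.44e-06). That library had Plac9 at 20.5 FPKM, against 3.42 and 4.44 in wild type day 1 replicates 1 and 2. It also stood apart in Col1a1, at 76.9 FPKM against 3.88 and 8.81 in those replicates. In it 12780 genes reached 1 FPKM, against 11703 to 11940 in the other day 1 libraries. The 69 calls at day 1 include this library. Plac9a shared 99.6% of its windows with other genes, so this level is uncertain in the same way. Duxbl1, the homeobox gene beside them, measured at most 0.173 FPKM in the knockout and 0.217 to 0.379 in the wild type, with a difference of -0.27 (limma adjusted p = 1). Of the 20 tested genes nearest to Tmem254, Plac9 was the only member with an unadjusted p under 0.05.

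Dynlt1b (Entrez 21648, chromosome 17) encodes a Tctex-type light chain of cytoplasmic dynein, the motor that carries cargo toward microtubule minus ends. It measured 6.02, 9.67 and 7.41 FPKM in the knockout and 2.55, 2.70 and 3.77 in the wild type. Every knockout library exceeded every wild type library. Dynlt1b rose by 1.11 on the log2 scale (SE 0.159, limma adjusted p = 0.02), had been called higher at day 1 with a difference of 1.27, and had a difference of 0.75 at day 7 (adjusted p = 0.384). None of its near-identical copies passed the test. Dynlt1a measured 1.06 to 1.84 FPKM in the knockout and 1.36 to 1.77 in the wild type, and Dynlt1c stayed under 0.6 FPKM in all 6 libraries. Dynlt1f, 1.41 to 2.31 FPKM in the knockout and 0.852 to 1.44 in the wild type, had a difference of 0.46 (limma unadjusted p = 0.0475, adjusted p = 1). Since 83.2% of the windows of the Dynlt1b transcript occur in other genes, the copies were also added together. The sum was 11.2 ± 2.49 FPKM in the knockout and 6.07 ± 0.371 in the wild type without overlap (SD, n = 3 each; exact two-sided permutation test, p = 0.1, the smallest possible). Dynlt1b, chosen for its difference, made up 7.70 and 3.01 FPKM of these means, so the sum is no separate test. Dynlt1-ps1, which shares windows with Dynlt1b, was not part of the sum, and how fragments divide among the copies stays unknown. None of the other 8 dynein light chains tested passed, and the median difference of the list, Dynlt1b included, was 0.17. Leaving out knockout replicate 2 or 3 or wild type replicate 2 gave Dynlt1b an adjusted p of 0.0705, 0.136 or 0.151, and the fit of the day 30 libraries alone gave 0.31.

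Rskr (Entrez 216976, chromosome 11), a gene for a protein related to ribosomal S6 kinases, measured 3.87, 3.01 and 2.98 FPKM in the knockout and 5.43, 7.27 and 7.36 in the wild type. The groups did not overlap, and the wild type mean of 6.69 ± 1.09 compared with 3.29 ± 0.504 in the knockout (SD, n = 3 each). Rskr fell by 0.84 on the log2 scale (SE 0.114, limma adjusted p = 0.02). It was almost absent at earlier ages, with no more than 0.0957 FPKM in any of the 12 libraries of days 1 and 7. Those near-zero libraries enter the shared SE, and in the fit of the day 30 libraries alone its adjusted p was 0.31. With a pseudocount of 0.1 in place of 1 it was 1. Without knockout replicate 2 or 3 it was 0.0705 or 0.136, and without wild type replicate 2 or 3 it was 0.151 or 0.145. The antisense gene Gm3948 overlaps Rskr in the reference annotation and was low, at 0 to 0.0456 FPKM in the knockout and 0.237 to 0.552 in the wild type. The sources used here do not say whether the libraries kept strand, so reads of this pair cannot be told apart.

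Spag5, a mitotic spindle protein encoded close to Rskr, measured 3.93, 3.13 and 2.95 FPKM in the knockout and 4.99, 7.37 and 7.40 in the wild type. Its difference of -0.80 (SE 0.187) did not pass (limma adjusted p = 0.654). Its ordering of the 6 libraries matched that of Rskr. Spag5 was chosen for a small p without overlap, so its knockout libraries lay below the wild type by the choice itself. With means of 3.34 FPKM in the knockout and 6.59 in the wild type, Spag5 reached the 5 FPKM required of uncalled genes only through the wild type. On the other side of a stretch of 27 tested genes that ends with Spag5 lies Blmh, the cysteine protease bleomycin hydrolase, at 26.1, 22.8 and 24.3 FPKM in the knockout and 17.2, 19.2 and 20.5 in the wild type (difference 0.35, adjusted p = 0.763). Within it Dhrs13, a short-chain dehydrogenase, measured 2.55 to 4.14 FPKM in the knockout and 1.49 to 1.86 in the wild type. This stretch was picked after the values were seen. It held 2 genes higher and 2 genes lower at an unadjusted p under 0.05, and its median difference was -0.00.

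**Figure D2:**
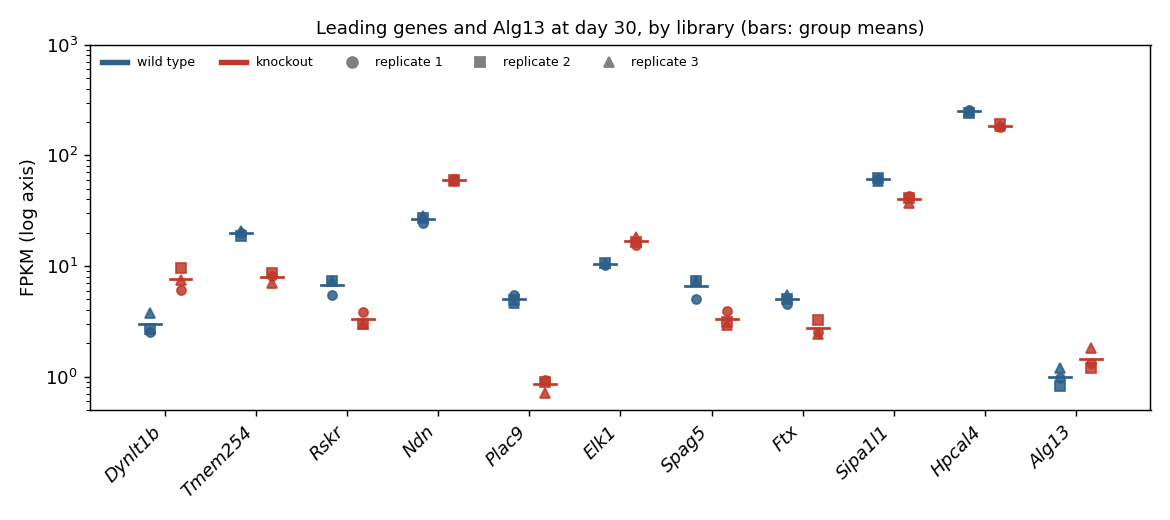
FPKM (log axis) of the 3 called genes, 7 of the uncalled genes described in the text and Alg13 in the 6 day 30 libraries, wild type in blue and knockout in red, with a marker shape per replicate and bars at group means. Knockout and wild type points are separated for every gene except Alg13, whose points overlap. The rule for uncalled genes of smallest p required no overlap, so for them the separation follows from the choice. Over all genes tested, 14.9% had no overlap.

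Among genes that did not pass, Ndn came closest. Ndn, necdin, is an imprinted gene expressed from the paternal copy in postmitotic neurons. It measured 60.6, 59.3 and 58.1 FPKM in the knockout and 24.7, 27.1 and 28.1 in the wild type. The groups were far apart and tight, and the difference was 1.13 (SE 0.193, limma adjusted p = 0.0795). It was 0.76 at day 7 and 1.10 at day 1, where it was called. In the fit of the day 30 libraries alone it passed at day 30 as well, with an adjusted p of 0.00555. It passed in 4 of 15 alternatives, and in the others its limma adjusted p reached up to 0.427. No window of the Ndn transcript occurred in another gene. Of the 20 tested genes nearest to it, 1 was higher and 1 lower at an unadjusted p under 0.05. The unnamed gene A230006K03Rik had a difference of -0.79 (limma unadjusted p = 0.00648, adjusted p = 1). The imprinted ring-finger gene Mkrn3 had a difference of 0.66 (unadjusted p = 0.0174, adjusted p = 1), with 0.462, 2.29 and 1.23 FPKM in the knockout and 0.526, 0.334 and 0.347 in the wild type. Among the other imprinted genes Meg3, a long non-coding RNA, measured 79.8, 268 and 98.5 FPKM in the knockout and 191 to 223 in the wild type, so that its groups overlapped. The 16 imprinted genes tested had a median difference of -0.02.

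The other uncalled genes were chosen by their unadjusted p, with a mean of at least 5 FPKM in the higher group and no overlap, and their ranks are a description. Ftx and Igfn1, at means of 2.75 and 2.80 FPKM in the knockout and 5.01 and 5.28 in the wild type, reached that level only through the wild type. Higher in the knockout were Elk1, an ETS transcription factor downstream of MAP kinases, at 15.6, 16.5 and 18.1 FPKM against 10.2, 10.6 and 10.6 (difference 0.63, limma adjusted p = 0.321), and the zinc-finger gene Zkscan3 at 12.3, 16.9 and 12.9 against 9.88, 9.39 and 8.17 (0.56, adjusted p = 0.438). Slc37a4, the glucose-6-phosphate transporter of the endoplasmic reticulum, measured 7.75, 7.06 and 7.76 FPKM in the knockout and 5.21, 5.20 and 4.85 in the wild type, a difference of 0.49 (adjusted p = 0.568). Nrep, a gene linked to neuronal regeneration, measured 72.2 to 81.5 FPKM in the knockout and 46.7 to 54.9 in the wild type (0.61, adjusted p = 0.714). Cops5, the catalytic subunit of the COP9 signalosome, the small GTPase gene Rras2 and the X-linked gene Arxes1 had differences of 0.35, 0.35 and 0.39 (adjusted p = 1 for each). Each of these genes was higher in all 3 knockout libraries, a property the choice itself required.

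Lower in the knockout were Ftx, a non-coding RNA of the X-inactivation centre, at 2.56, 3.26 and 2.43 FPKM against 4.55, 5.03 and 5.47 (difference -0.69, limma adjusted p = 0.335), and Igfn1, an immunoglobulin-domain gene, at 3.39, 1.86 and 3.13 against 3.96, 6.53 and 5.36 (-0.73, adjusted p = 0.354). Sipa1l1, a GTPase-activating protein for Rap that sits in the postsynaptic density, measured 42.6, 41.2 and 37.2 FPKM in the knockout and 61.7, 61.9 and 58.1 in the wild type, a difference of -0.58 (adjusted p = 0.714). Its differences at days 7 and 1 were 0.35 and -0.06. Marf1 and Zfp106, which encode RNA-binding proteins, and Gfod1 had differences of -0.52, -0.37 and -0.53 (adjusted p = 1 for each). Hpcal4, a neuronal calcium sensor, measured 180, 193 and 183 FPKM against 259, 241 and 253 (-0.43, adjusted p = 1).

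Genes of N-glycan assembly did not pass the test. In the cytosolic steps where Alg13 acts, none of 7 tested genes was called, 6 had a positive difference and the median was 0.13. Alg14, the partner of Alg13, measured 6.02, 4.79 and 5.42 FPKM in the knockout and 4.603, 5.08 and 4.79 in the wild type, and its groups overlapped (difference 0.13, limma adjusted p = 1). The 8 lumenal assembly genes had a median of 0.01, with Alg5 at 0.19 and Mpdu1 at 0.18, the former supplying glucosyl donors and the latter needed for the use of dolichol-linked sugars. In dolichol and sugar-nucleotide supply 16 of 18 differences were positive with a median of 0.07. Dolpp1, the dolichyl pyrophosphate phosphatase that recycles the lipid, was the member there with an unadjusted p under 0.05 in limma (0.0466). It measured 3.73, 4.19 and 3.91 FPKM in the knockout and 3.18, 3.36 and 2.71 in the wild type.

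All 12 oligosaccharyltransferase genes had positive differences, from 0.01 to 0.34, with a median of 0.15, and none had an unadjusted p under 0.05. The largest were Tmem258, at 46.8, 31.8 and 39.6 FPKM in the knockout and 29.5, 28.1 and 34.7 in the wild type, and Ddost, at 39.3, 33.0 and 35.1 against 30.9, 30.4 and 30.6. Knockout replicate 1 was the highest library for both. The 21 trimming and branching genes split 11 to 10 with a median of 0.00 (-0.03 after quantile normalization), and of them Mgat2, which starts the second antenna of complex glycans, had a difference of 0.25 and Man2a2, a Golgi mannosidase, -0.19. Of 23 folding and unfolded protein response genes 20 were positive with a median of 0.13. Pdia3, a disulfide isomerase that works on glycoproteins, measured 71.5 to 77.7 FPKM in the knockout and 60.8 to 65.7 in the wild type (difference 0.23), and Atf6, a stress sensor of the endoplasmic reticulum, had a difference of -0.24. Hspa5, the chaperone induced by that stress, measured 69.9 to 97.5 FPKM against 72.1 to 81.2, and the groups overlapped.

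**Figure D3:**
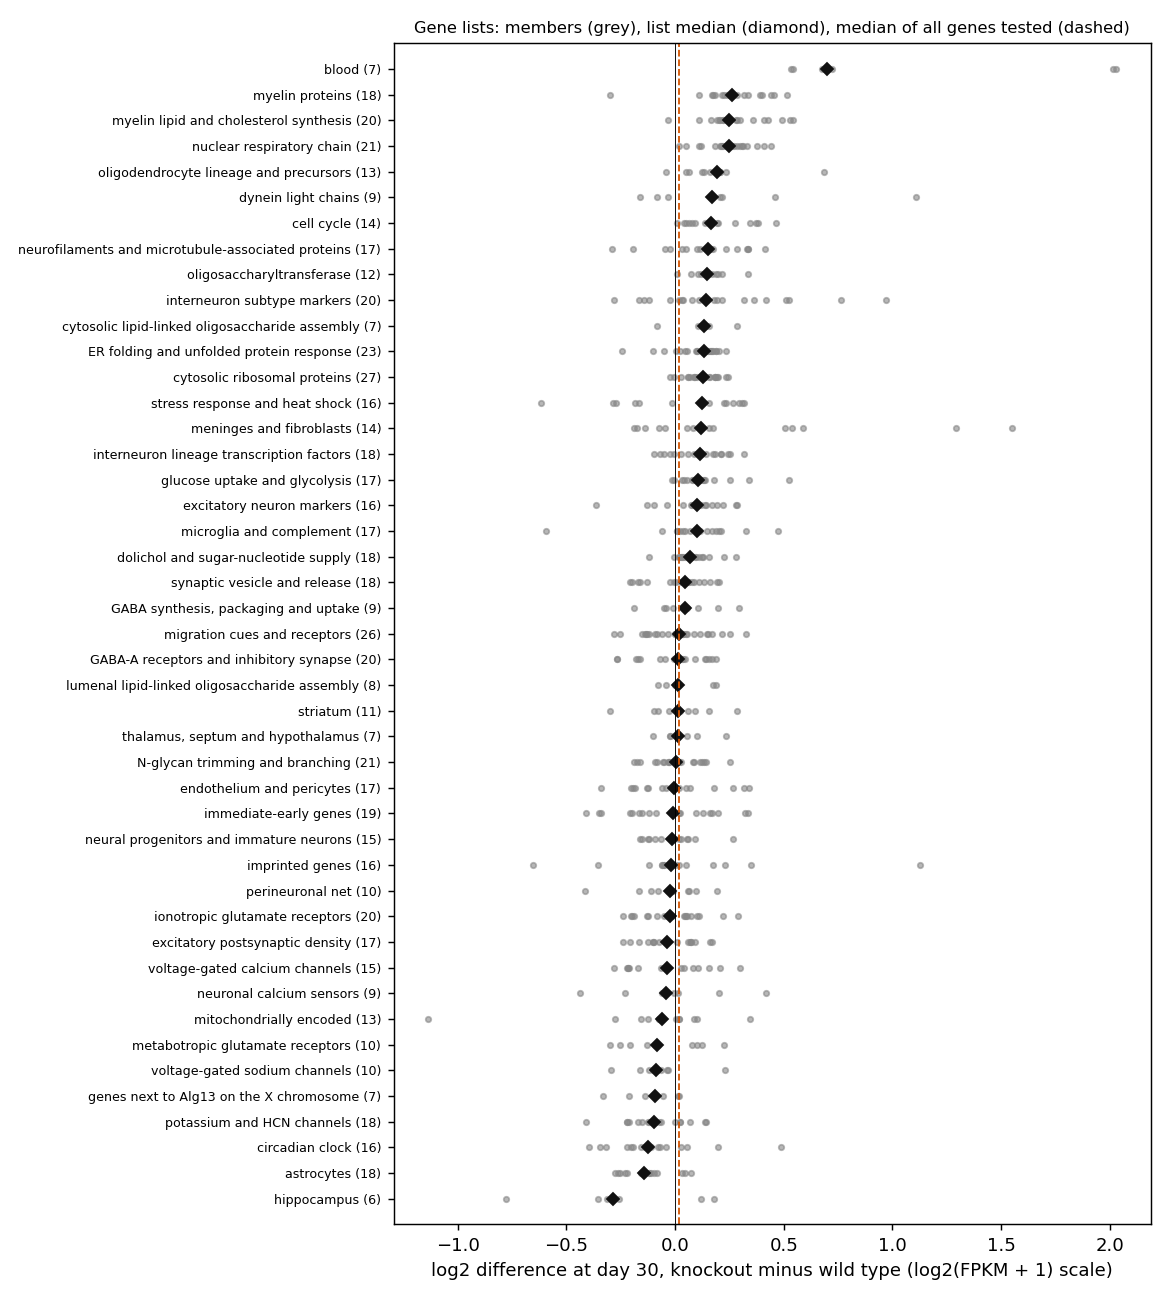
Log2 differences at day 30 (x axis, knockout minus wild type) of the tested members of each gene list with at least 5 of them, other than sex-linked and salivary gland genes (y axis, number tested in brackets). Grey points are genes, diamonds are list medians and the dashed line is the median of all genes tested, 0.02. List medians run from -0.29 for hippocampus to 0.70 for blood, and most lie within 0.2 of 0.

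None of the interneuron genes that the series is about passed the test. Gad1, the main GABA-synthesizing enzyme, measured 72.1, 42.6 and 63.1 FPKM in the knockout and 48.9, 58.7 and 53.9 in the wild type, so the wild type values lay inside the knockout range. Its difference was 0.11 with a 95% interval of -0.56 to 0.77. Gad2, the synaptic form of the enzyme, measured 15.6, 18.4 and 18.9 FPKM against 14.8, 16.4 and 14.5 (0.20, interval -0.46 to 0.85). Slc32a1, the vesicular GABA transporter, was higher in all 3 knockout libraries, at 16.5, 13.6 and 14.9 FPKM against 11.6, 12.8 and 11.7, with a difference of 0.30 and an interval of -0.33 to 0.92. The limma adjusted p was 1 for each of these genes. The list of GABA synthesis, packaging and uptake also held the chloride transporter genes Slc12a5 and Slc12a2. Its 9 genes had 5 positive differences and a median of 0.05, which became -0.03 after quantile normalization.

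Pvalb, the marker of fast-spiking basket cells, measured 108, 36.9 and 77.1 FPKM in the knockout and 45.1, 55.7 and 62.8 in the wild type. The knockout values spanned almost a 3-fold range, and the difference of 0.32 (interval -0.23 to 0.86) was -0.02 without knockout replicate 1. Sst, somatostatin, measured 159, 110 and 168 FPKM against 105, 102 and 114 (0.42, interval -0.42 to 1.26), and Vip, the peptide of a disinhibitory class, 51.7, 32.1 and 36.7 against 28.4, 39.2 and 36.4 (0.19, interval -0.40 to 0.78). Npy, neuropeptide Y, measured 301, 165 and 247 FPKM in the knockout and 192, 205 and 215 in the wild type. Calb1, calbindin, measured 110, 68.5 and 92.8 FPKM against 70.2, 99.4 and 93.1 and had a difference of 0.03. Knockout replicate 1 was highest and knockout replicate 2 lowest of the 3 for Gad1, Pvalb, Vip, Npy and Calb1. Calb2, calretinin, measured 9.63, 8.27 and 4.55 FPKM against 5.62, 4.32 and 4.202, and Reln, reelin, 4.49, 8.62 and 5.76 against 5.40, 5.11 and 4.81. None of these genes passed (limma adjusted p = 1 for each).

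Of 20 interneuron subtype markers tested, 15 had a positive difference, the median was 0.14, and 2 had an unadjusted p under 0.05. Cort, cortistatin, measured 8.21, 5.29 and 6.88 FPKM in the knockout and 3.77, 2.99 and 3.89 in the wild type without overlap (0.76, limma unadjusted p = 0.0252, adjusted p = 1). Crh, corticotropin-releasing hormone, measured 8.42, 4.81 and 4.74 FPKM against 3.92, 3.82 and 3.58 (0.51, unadjusted p = 0.0425). The median of this list was -0.01 without knockout replicate 1. Lhx6, the transcription factor of parvalbumin and somatostatin lineages, measured 3.60, 4.39 and 3.79 FPKM against 3.31, 3.42 and 3.02, and the 18 lineage transcription factors had a median of 0.11. The 20 genes of GABA-A receptors and the inhibitory synapse had a median of 0.02 (-0.04 after quantile normalization), with the scaffold Gphn at 0.14 and the receptor subunit Gabra3 at -0.18. Among 26 migration cues and receptors the median was 0.02 and none had an unadjusted p under 0.05. Of 10 perineuronal net genes 4 were positive. The largest difference there, -0.41 for the link protein gene Hapln4, went with 10.8 FPKM in knockout replicate 2, while replicates 1 and 3 had 35.0 and 26.0 and the wild type 27.4 to 30.2.

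**Figure D4:**
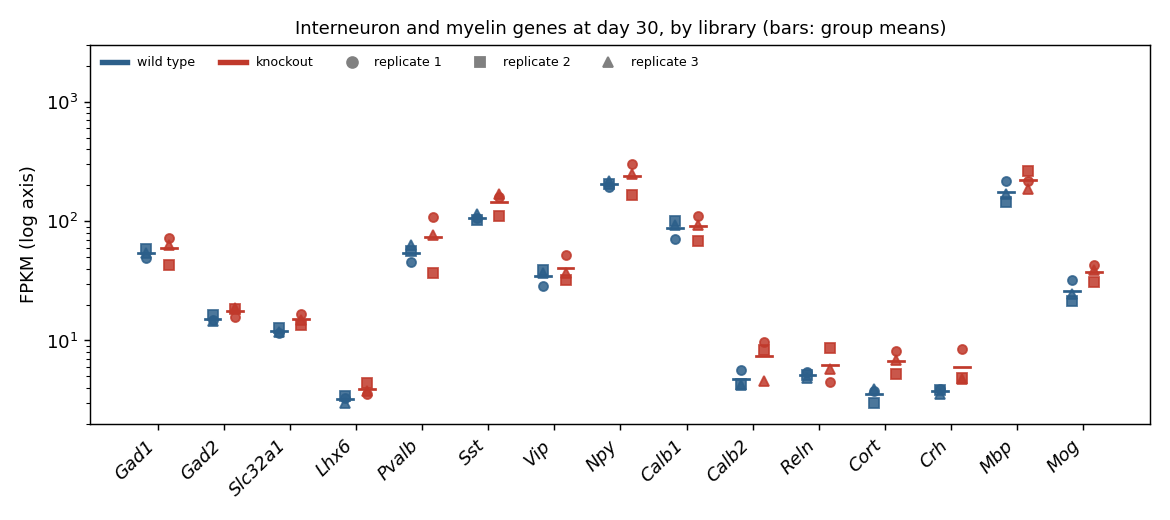
FPKM (log axis) of 13 interneuron genes and 2 myelin genes in the 6 day 30 libraries, wild type in blue and knockout in red, with a marker shape per replicate and bars at group means. For Gad1, Pvalb, Npy and Calb1 the knockout points surround the wild type points, and for Cort and Crh every knockout point lies above.

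Excitatory neuron and excitability genes gave small differences. Slc17a7 measured 424, 475 and 462 FPKM in the knockout and 440, 398 and 399 in the wild type (0.14, limma adjusted p = 1). The 16 excitatory neuron markers had a median of 0.10. Homer2 (-0.30), not itself a receptor gene, was on the metabotropic receptor list. Medians were -0.02 for 20 ionotropic glutamate receptor genes, -0.08 for the 10 genes of the metabotropic receptor list, -0.04 for 15 calcium channel genes and -0.04 for 17 postsynaptic density genes. Without knockout replicate 1 these medians were 0.05, 0.05, 0.09 and 0.07, and all but that of the metabotropic receptors also changed sign without at least 1 other library. Of 10 genes on the sodium channel list 9 had a negative difference, with a median of -0.09 (0.01 without wild type replicate 2). Fgf12, on that list but not itself a channel gene, was the positive member (0.23). Of 18 potassium and HCN channel genes 13 were negative, with a median of -0.10. The 18 synaptic vesicle genes had a median of 0.05 (-0.04 after quantile normalization) and the 19 immediate-early genes -0.01. Among 17 neurofilament and microtubule genes, Tuba1a and Stmn2 had an unadjusted p under 0.05, with 414, 585 and 459 FPKM against 406, 336 and 345, and 222, 253 and 236 against 191, 191 and 201.

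Myelin genes were mostly higher in the knockout libraries without passing the test. Of 18 myelin protein genes 17 had a positive difference, with a median of 0.26. Mog, myelin oligodendrocyte glycoprotein, measured 42.5, 30.9 and 39.1 FPKM in the knockout and 32.0, 21.6 and 24.7 in the wild type (0.51, limma unadjusted p = 0.0122, adjusted p = 1). Mbp, myelin basic protein, measured 216, 264 and 187 FPKM against 215, 145 and 170. Wild type replicate 1 was the highest wild type library for both genes and reached into the knockout range. The myelin protein list summed to 1223 to 1263 FPKM in the knockout and to 835 to 1176 in the wild type. Of 13 oligodendrocyte lineage genes 12 were positive, and Enpp6, a marker of newly formed oligodendrocytes, measured 2.10, 5.43 and 3.62 FPKM against 2.50, 1.20 and 1.87.

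Enzymes for myelin lipids and cholesterol were also mostly higher. Of 20 tested, 19 had a positive difference, the median was 0.25, and 5 had an unadjusted p under 0.05, among them Sqle, Fa2h, Ugt8a and Hmgcs1. Sqle, squalene epoxidase, measured 19.97, 28.0 and 26.0 FPKM in the knockout and 20.1, 14.1 and 16.1 in the wild type (0.53, limma unadjusted p = 0.00378). Fa2h, which hydroxylates the fatty acids of myelin lipids, measured 9.97, 10.8 and 11.3 FPKM against 9.45, 6.35 and 7.47 (0.43, unadjusted p = 0.00455). Hmgcs1, which makes the precursor of mevalonate, measured 77.7, 121 and 110.0 FPKM against 95.2, 63.1 and 72.8. The adjusted p was 1 for each of these 3 genes. Medians of this list at days 7 and 1 were -0.11 and 0.33.

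Astrocyte genes were mostly lower, with 15 of 18 negative and a median of -0.14, and none had an unadjusted p under 0.05. Mlc1, an astrocyte membrane protein, measured 53.3, 46.8 and 41.5 FPKM in the knockout and 57.8, 53.8 and 57.9 in the wild type (-0.26), and Aqp4, the water channel of astrocyte endfeet, 24.9, 25.3 and 28.8 against 35.6, 26.4 and 31.6 (-0.23). Gfap, which rises in reactive astrocytes, measured 17.8, 12.4 and 12.2 FPKM against 13.5, 14.6 and 17.6. The groups overlapped for Aqp4 and Gfap. Of 17 microglial and complement genes 15 were positive with a median of 0.10, and P2ry12, a receptor of resting microglia, measured 25.9, 37.7 and 34.3 FPKM against 29.9, 19.3 and 20.8. The 17 endothelial and pericyte genes had a median of -0.01. Mfsd2a, a lipid transporter of the blood-brain barrier, had a difference of 0.34 (limma unadjusted p = 0.0292).

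The widest list medians were those of liver, blood and hippocampus, and those of blood and liver followed the libraries named above. Medians of the other lists of brain regions and outside tissues lay between -0.04 for skeletal muscle and 0.14 for lung. The 7 blood genes tested were all positive, with a median of 0.70, and the list summed to 458 to 2069 FPKM in the knockout and to 351 to 716 in the wild type, the top value being that of knockout replicate 3. S100a9, the partner of S100a8, measured 3.70, 1.86 and 26.0 FPKM against 0.264, 1.36 and 0.849 (2.01, limma adjusted p = 1). The 4 liver genes tested were all negative, with a median of -1.21, and the liver list summed to 6.25 to 12.6 FPKM in the knockout and to 7.81, 74.1 and 92.9 in the wild type. Apoa2, a plasma apolipoprotein, measured 1.22 to 1.72 FPKM in the knockout and 1.51, 7.03 and 8.37 in the wild type. Without wild type replicate 1, in which these liver genes were low, 16 genes were called, among them Apoa1, Apoa2 and Fabp1. Of 10 choroid plexus genes 8 stayed under 1 FPKM in all 6 libraries. The hippocampal list, with 6 genes tested, had a median of -0.29. Its sum was 67.6, 48.6 and 63.4 FPKM in the knockout and 70.2, 80.8 and 71.4 in the wild type, without overlap. Its lowest member Tdo2, also a liver enzyme, measured 0.684, 0.518 and 0.270 FPKM against 0.275, 2.28 and 2.89. The part of blood and liver RNA in the other differences was not tested.

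Genes of energy supply and growth gave small differences. All 21 nuclear genes of the respiratory chain tested had positive differences with a median of 0.25, and for 14 of them the groups did not overlap, where 9.35% of all genes had the knockout higher without overlap. Cox7a2, a cytochrome oxidase subunit, measured 185, 144 and 188 FPKM in the knockout and 132, 117 and 137 in the wild type (0.41, limma unadjusted p = 0.0332, adjusted p = 1). The 13 mitochondrially encoded genes tested had a median of -0.06. Of 27 cytosolic ribosomal protein genes 25 were positive with a median of 0.13, which was -0.02 without knockout replicate 1. The 17 glycolysis genes had a median of 0.10, with Pgk1 at 189, 159 and 171 FPKM against 142, 153 and 140. All 14 cell cycle genes were positive with a median of 0.17, at low levels for most. Rrm2, which makes deoxynucleotides, measured 0.905, 1.404 and 1.45 FPKM against 0.618, 0.601 and 0.643. Of 16 circadian clock genes 12 were negative with a median of -0.12, and Bhlhe40, a repressor in the clock, measured 23.2, 21.6 and 28.6 FPKM against 28.6, 40.3 and 29.2. The sources used here do not give the time of day of sampling. Among 16 stress and heat shock genes Hspd1, a mitochondrial chaperonin, was higher in all 3 knockout libraries (0.27) and the inducible chaperone gene Hspa1b lower (-0.61), and neither passed. Of the 7 genes tested from the list of X-linked neighbours of Alg13, 5 were negative. Chrdl1, a BMP antagonist secreted by astrocytes, measured 5.46, 6.31 and 6.14 FPKM against 7.85, 7.26 and 8.20 (-0.33, unadjusted p = 0.0105).

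The difference at day 30 was then compared with that at the earlier ages in the same fit. Against day 1 a single gene passed, Hpcal4 (0.00749% of genes tested). Its levels at day 1 were 11.1, 14.0 and 16.3 FPKM in the knockout and 7.46, 8.76 and 6.56 in the wild type, and at day 7 they were 63.1, 65.4 and 75.1 against 43.7, 47.8 and 45.3. Every knockout library was higher at both earlier ages and every one lower at day 30. The genotype difference went from 0.77 at day 1 and 0.56 at day 7 to -0.43 at day 30, a change from day 1 of -1.21 (SE 0.175, limma adjusted p = 0.0454) and from day 7 of -0.99 (adjusted p = 0.446). The call rests on several libraries. Without any single day 30 library, or without knockout day 1 replicate 2 or 3, the adjusted p lay between 0.0593 and 0.222, while the change stayed between -1.24 and -1.09. With median-centred libraries it was 0.0672, and in the libraries of days 1 and 30 alone 0.746.

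Against day 7 limma called no gene (0% of genes tested), and 626 had an unadjusted p under 0.05. In the libraries of days 7 and 30 alone 6 genes were called, Hpcal4 (limma adjusted p = 0.00327), Nrep, Bpifa2, Dcpp2, Dcpp3 and Smgc. All but Hpcal4 and Nrep are on the salivary gland list, whose median difference was 0 at day 30, -1.09 at day 7 and -3.94 at day 1. Of the 9 genes on that list, 8 stayed under 1 FPKM in all 6 day 30 libraries. The part of salivary gland RNA in these calls was not tested. Against day 1, 1107 genes had an unadjusted p under 0.05. Aqp4, with a difference of 0.95 at day 1 and -0.23 at day 30, changed by -1.18 (adjusted p = 0.275). Rskr changed by -0.77 from day 7 and by -0.86 from day 1 (adjusted p = 0.674 and 0.275), and it was close to 0 FPKM at those ages. Mog had a difference of -0.02 at day 1, 0.48 at day 7 and 0.51 at day 30. Calb1, at 1.49 on day 1 and 0.80 on day 7, was at 0.03 on day 30, a change from day 1 of -1.46 (adjusted p = 0.516).

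**Figure D5:**
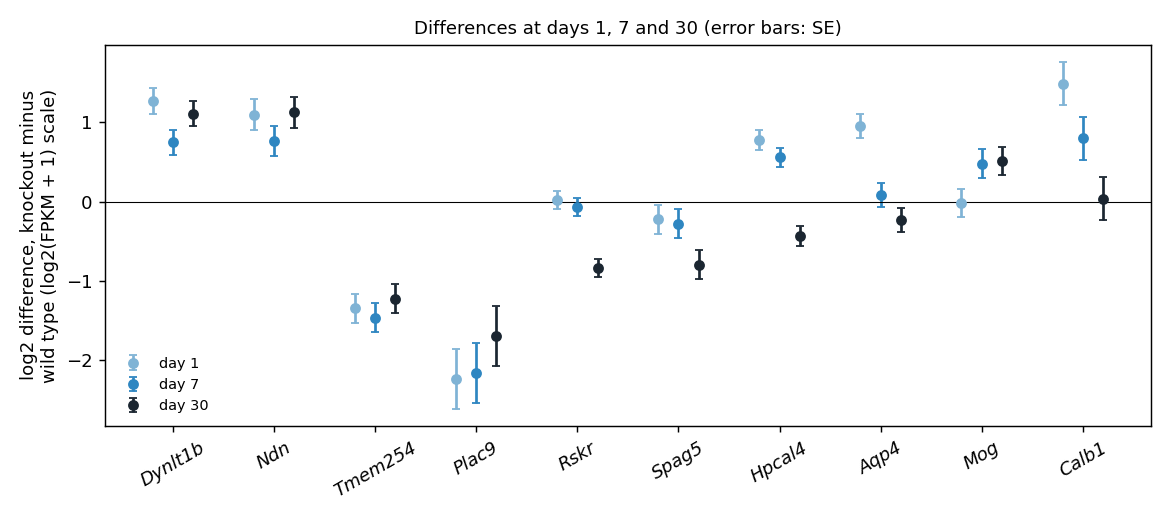
Log2 differences, knockout minus wild type, with SE (bars) at days 1, 7 and 30 for 10 genes. Dynlt1b and Ndn stay above 0 and Tmem254 and Plac9 below 0 at all 3 ages, Hpcal4 passes from 0.77 to -0.43, and Calb1 stands at 0.03 at day 30 after 1.49 and 0.80.

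The 69 genes called at day 1 were then read at day 30. The calls at both ages come from the same fit, so the day 30 libraries entered the shared SE and the filter that chose these genes, and the counts are a description. Of the 48 called higher at day 1, 36 were positive at day 30 with a median difference of 0.12, against 0.71 at day 1, and of the 21 called lower 19 were negative with a median of -0.13, against -0.75. Over all genes tested, 55.3% were positive at day 30. Of these 69 genes, 12 had an unadjusted p under 0.05 at day 30, and Hpcal4 was the member among them with the opposite sign. The others were Dynlt1b, Tmem254, Ndn, Zkscan3, Plac9, Arxes1 and Sqle, together with Brinp3, Srd5a1, Fez1 and Snx10. Fez1, an adaptor for kinesin transport in axons, measured 78.8, 66.0 and 74.0 FPKM at day 30 in the knockout and 60.7, 58.1 and 59.8 in the wild type (0.28, limma unadjusted p = 0.0383, adjusted p = 1). Brinp3 measured 12.1, 10.5 and 13.5 FPKM against 8.08, 10.04 and 9.30 (0.36, unadjusted p = 0.0123).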

How the data were processed

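RNA sequencing of mouse cortex was deposited as 1 table of FPKM computed by the authors, with a column per library and no pooling. The submitters' processing notes name Bowtie2, RSEM 1.3.1, DESeq2 1.4.5 and build GRCm39, with no role or order. Absolute depth is unknown, since no read counts are held in it. Relative depth from the low FPKM values was 1 to 1.21 among the day 30 libraries, their total FPKM 313919 to 371182, and 12110 to 12213 genes reached 1 FPKM in each.

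Genes with at least 1 FPKM in at least 3 of 18 libraries were kept. The limma package 3.58.1 (R 4.3.3) was fitted to log2(FPKM + 1) with 6 group means, the mean-variance trend and 12 residual degrees of freedom, so all groups shared an SE. P-values are two-sided, adjusted by Benjamini-Hochberg over 13347 genes. The method was tested on simulated data. Intervals are 95% and use limma's moderated SE. Single values were compared with exact permutation tests.

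Named genes were Alg13, called genes (up to 15 a direction), uncalled genes of smallest p without overlap and with a mean of at least 5 FPKM in the higher group, up to 4 called or 2 uncalled members of each of 52 gene lists, and 20 genes of interest. Spag5 and Blmh came in by the rule for uncalled genes. Others named, such as Alg14, Gfap, Hspa5, Hmgcs1 and Dhrs13, were added for their role or after their values were seen. Gene models without a proper name were not named, except Gm3948 and A230006K03Rik, and some results for genes the rule selects are not reported here. The comparison and the lists were chosen with earlier results of these data known. Gene order, chromosome numbers and the upstream sequences come from RefSeq and GENCODE annotation of GRCm38.p6, another build than the table's, to which 27713 of 28852 genes matched. Alternatives changed the pseudocount, the filter, the scaling, library weights, the libraries fitted and a replicate block, and left out each library of the compared groups in turn, and wild type day 1 replicate 3.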

Additional observations from a re-analysis of the deposited data

Results flagged for a closer look

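Hpcal4 was singled out because its genotype difference itself differed between ages. The day 30 difference minus the day 1 difference was -1.21 (SE 0.175, limma adjusted p = 0.0454). All 3 knockout libraries were above all 3 wild type libraries at day 1, and all 3 were below them at day 30. These are the values that gave the call, so they add no separate support. In 12 of 20 alternatives the change did not pass, with a limma adjusted p of up to 0.746. The cause was not tested.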

How the results depend on the processing

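The count of 3 genes called at day 30 ranged from 0 to 16 when a library was left out. It was 0 without knockout replicate 2 or 3 or wild type replicate 2, 1 without wild type replicate 3, 5 without wild type day 1 replicate 3 and 16 without wild type replicate 1. With no filter on low values it was 15, of which 3 were the genes reported. The replicate numbers did not pair the libraries at day 30, where same-numbered deviations correlated at -0.34, -0.04 and -0.06. At day 7 they correlated at 0.33, 0.34 and 0.53, where replicates 1 and 2 crossed also gave 0.24 and 0.39. At day 1 the same-numbered values were 0.03, 0.13 and 0.10. The main fit, whose SE these libraries share, had no replicate block. A replicate block within each day left 1 call, Tmem254. The day 30 libraries alone gave 3 calls, Ndn, Plac9 and Tmem254, of which 1 was shared. Against day 7 the count of 0 became 4 with library weights, 6 in the libraries of those days alone, and 0 to 1 without a library. Against day 1 the count of 1 became 3 with no filter, 0 with median-centred libraries, library weights, the replicate block or the libraries of those days alone, and 0 to 4 without a library. The count of 29 of 47 lists with a positive median stayed between 24 and 34, and the medians of 26 lists changed sign under at least 1 alternative. Of 132 named genes 8 changed side of the threshold under some alternative and 15 changed sign, none of them called. Quantile normalization gave -0.0262 for Slc17a7 and -0.0649 for Calb1. Library weights gave -0.0319 for Calb1, -0.0487 for Aqp1, -0.0034 for Scgb1a1 and 0.0612 for Acta1. Without a library the differences ran from -0.75 to 0.0543 for Hapln4, -0.0175 to 0.74 for Pvalb, -0.56 to 0.18 for Scn4b, -0.0014 to 0.40 for Reln, -0.0138 to 0.42 for Npy, -0.00082 to 0.33 for Vip, -0.0525 to 0.36 for Uty, -0.0256 to 0.18 for Rgs16, -0.0506 to 0.32 for Gad1, -0.60 to 0.71 for Sftpc, -0.10 to 0.27 for Aqp1, -1.29 to 1.69 for Scgb1a1, -0.12 to 0.22 for Calb1 and -0.49 to 0.23 for Acta1. The causes of these changes were not tested. Without read counts, how far depth limits low genes cannot be stated.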

Other observations

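ATP8, a mitochondrially encoded subunit of ATP synthase, measured 81.6, 71.0 and 266 FPKM in the knockout libraries and 87.3, 1190 and 159 in the wild type libraries at day 30, so that wild type replicate 2 stood far above the other 5. Rnaset2b, a ribonuclease gene near Dynlt1b on chromosome 17, measured 3.90, 3.21 and 3.73 FPKM in the knockout and 8.38, 12.3 and 6.32 in the wild type, a difference of -1.08 that did not pass (limma unadjusted p = 0.0153, adjusted p = 1). Tac1, the gene of substance P, measured 5.14, 8.42 and 6.85 FPKM in the knockout and 3.38, 2.58 and 2.84 in the wild type without overlap, with a difference of 0.97 (unadjusted p = 0.13). These genes were chosen after their values were seen.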
